A study of Mus musculus with 8 samples.

Results

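The TIM and TOM genes encode the translocases that carry nuclear-encoded proteins into mitochondria, and their mRNAs were followed in activated mouse CD8+ T cells treated with GC7 or with vehicle. Members were all protein-coding genes of GRCm38 (Ensembl 96) whose symbol begins with Timm or Tomm followed by a digit. There were 25 of them among 22028 protein-coding genes and 55536 genes in the count files. By position, 8 belong to the inner membrane complexes TIM23 and TIM22, 7 to the small TIM chaperones between the membranes and 10 carry a Tomm symbol and are counted as the outer membrane group, which by this rule includes Tomm34, a cytosolic protein.

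The T cells came from lymph nodes of C57BL/6 mice that carried the OT-1 T cell receptor transgene on a Rag-1KO background (B6.129S7-Rag1tm1Mom/J), with CD45.1 or CD45.2 alleles. Donors were 5 to 12 weeks old and of both sexes. Through the transgene the cells had the same receptor, which recognises the ovalbumin peptide SIINFEKL. In both groups the cells met 100 nM SIINFEKL for 2 days and then grew for 2 days with 20 ng/mL human IL-2. During the IL-2 culture the GC7 group (4 biological replicates) had 10 µM GC7 and the Mock group (4 biological replicates) had its acetic acid vehicle. GC7 is a spermidine derivative that inhibits deoxyhypusine synthase, the enzyme that starts hypusination of the translation factor eIF5a, and the study's text says it also has effects that do not depend on eIF5a. Protein levels and import itself were not measured in these libraries.

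Almost all mitochondrial proteins are made in the cytosol. The TOM complex recognises them at the outer membrane and threads them through its channel, after which TIM23 takes those with a cleavable presequence across or into the inner membrane, and small TIM chaperones escort hydrophobic carrier proteins to TIM22 for insertion. Activated T cells expand their mitochondrial mass as they grow.

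The 8 libraries held between 17528776 and 25284730 counts, and correlations of log2 CPM (each count scaled by its library's total) were at least 0.987 within Mock, at least 0.989 within GC7 and 0.909 to 0.936 across the groups. Protein-coding transcripts of the mitochondrial genome took 1.67% to 1.78% of counts in Mock and 0.118% to 0.146% in GC7. The labelled cell type had all 6 of its CD8 T cell markers past the filter (summed 6118 to 7344 CPM in Mock and 4095 to 5663 in GC7). Most of that sum was Gzmb (3968 to 4817 CPM in Mock and 1901 to 3440 in GC7), whereas Cd8a stood at 680 to 743 CPM in Mock and higher, at 940 to 1003, in GC7. Cd4 stayed at or under 0.41 CPM, the B cell markers Ms4a1 and Pax5 had no count, and the summed B cell, NK and erythroid markers did not pass 1.23 CPM. The 5 myeloid markers summed to 8.44 to 11.1 CPM in Mock and 5.73 to 9.65 in GC7, with only Cd68 past the filter, and the 4 dendritic markers to 4.85 to 6.63 and 4.55 to 5.3, with Zbtb46 and Xcr1 past it. These moved in opposite directions, Zbtb46 from 0.251 to 0.595 CPM in Mock to 3.37 to 4.74 in GC7 and Xcr1 from 4.05 to 5.7 to 0.391 to 0.819. The 5 stromal and endothelial markers summed to 51.6 to 56.3 CPM in Mock and 30.5 to 32.2 in GC7, nearly all of it Pecam1, while Cdh5 was at 0. The part of these shifts in the changes below was not tested. In RNA from bulk cultures, fewer cells of a kind and less RNA per cell cannot be told apart.

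Most TIM and TOM mRNAs stayed close to their Mock level. A member was tested where 4 or more libraries had it above 3 CPM. Of the 22 tested members, 4 rose in GC7-treated cells and 2 fell at an FDR under 0.01 (edgeR quasi-likelihood test, Benjamini-Hochberg adjustment over 11189 genes). The genes that rose were Timm9 and Timm10, which form the carrier chaperone of the intermembrane space, Tomm20, the presequence receptor of the outer membrane, and Timm29, a subunit of TIM22. Those that fell were Timm17b and Timm21, both of TIM23. The called members made up 27.3% of those tested, beside 46.6% of all genes tested, where 23.0% rose and 23.5% fell. No member changed by more than 2-fold, which 8.48% of all tested genes did with an FDR under 0.01, and only Timm9 by more than 1.5-fold, which 22.1% did. The median log2 fold change of the members was 0.03 and their median absolute change 0.14, against 0.02 and 0.29 over all genes tested. The 4 Mock and 4 GC7 values did not overlap in 8 of the 22 members, whereas they were separate in 55.6% of all genes. All changes are relative to TMM scaling, which would not show a shift common to most mRNAs.

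**Figure D1:**
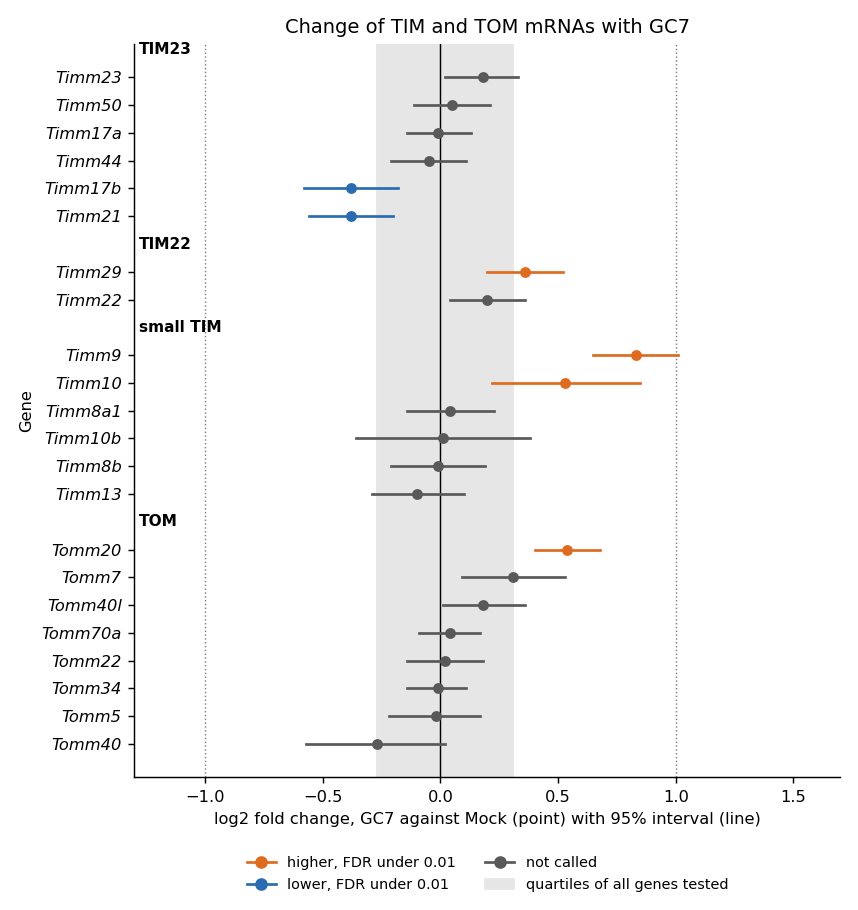
Log2 fold change of each tested TIM or TOM mRNA, GC7 against Mock (points), with its 95% interval (lines), grouped by complex; the grey band spans the quartiles of all genes tested, -0.27 to 0.31, and dotted lines mark 2-fold. Timm9, Timm10, Tomm20 and Timm29 lie to the right and Timm17b and Timm21 to the left, and most other members lie inside the band.

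Stretches of promoter are shown for the 4 genes that rose, and for Timm8a1 as a member whose mRNA was not called but whose promoter has the same letters. RefSeq (GRCm38.p6) gave a window of 300 bases, 250 before to 50 after the start, for 22 of the 25 members. Timm21, which fell, Tomm7 and Tomm40l had no window and were not searched. Capitals mark the E-box CACGTG, which reads the same on both strands and binds MYC and related factors, and the ETS motif CCGGAAG on either strand (CTTCCGG as its complement). Each is printed along the gene's strand.
Timm9, chr12:71136671-71136820, minus strand: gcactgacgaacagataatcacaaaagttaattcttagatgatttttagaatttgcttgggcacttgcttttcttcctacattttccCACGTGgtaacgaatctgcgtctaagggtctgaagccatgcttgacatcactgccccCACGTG
Tomm20, chr8:126945922-126946071, minus strand: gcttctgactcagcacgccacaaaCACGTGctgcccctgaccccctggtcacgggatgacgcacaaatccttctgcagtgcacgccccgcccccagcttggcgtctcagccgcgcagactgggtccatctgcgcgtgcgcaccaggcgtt
Timm10, chr2:84827029-84827058, plus strand: acttcCTTCCGGAAGtgaccCACGTGcttc
Timm29, chr9:21592492-21592641, plus strand: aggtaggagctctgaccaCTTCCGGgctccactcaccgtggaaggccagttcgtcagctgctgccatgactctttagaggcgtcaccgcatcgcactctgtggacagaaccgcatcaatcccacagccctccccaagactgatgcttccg
Timm8a1, chrX:134541821-134541920, minus strand: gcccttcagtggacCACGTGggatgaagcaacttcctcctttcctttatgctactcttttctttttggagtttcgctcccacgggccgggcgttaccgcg

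The Timm9 window held CACGTG at positions -58 and -1 from its start, that of Tomm20 at -126 and that of Timm10 at 29, while the Timm29 window held none. CACGTG was found in 5 of the 22 member windows, the others being Timm8a1 (-236 and 25) and Tomm20l (-25). It stood in 8.09% of 27025 gene promoters and 12.2% of those of tested genes. The 22 windows include those of Tomm20l, Timm8a2 and Tomm6, which were not tested. The shares of tested genes leave such genes out. CCGGAAG was found in 9 member windows, among them Timm29 at -212 and the untested Timm8a2. Timm10 held it at -16, before the printed stretch, and at 14 and 17, where the matches overlap on opposite strands. CCGGAAG stood in 9.93% of all promoters and 22.8% of those of tested genes. The NRF1 core GCGCATGC was found in Timm13 alone, against 3.05% of promoters and 6.63% of those of tested genes. The ATF4 core TGATGCAA was in no member window and in 1.03% of promoters (0.768% of those of tested genes). None of the motifs searched was found in the window of Timm17b, which fell. The matches of letters describe the windows and do not show that a factor was bound.

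In the inner membrane group, all 8 members were tested, and 1 rose and 2 fell. With library totals in place of TMM, 3 were higher and 0 lower, since Timm22 and Timm23 passed the threshold and Timm21 (adjusted p = 0.0104) and Timm17b (adjusted p = 0.0128) did not. Their median log2 fold change was 0.02, and their summed level was 416 to 476 CPM in Mock and 430 to 443 CPM in GC7.

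TIM23 accounted for both falls. Timm17b, which with Timm17a forms alternative versions of the subunit that pairs with Timm23 (ENSMUSG00000031158, chrX:7899357-7908351), had 60.3, 76.8, 65.1 and 57.6 CPM in Mock replicates 1 to 4 and 47.2, 46.8, 55.2 and 50.7 CPM in GC7 replicates 1 to 4. Every GC7 value lay under every Mock value, by a narrow margin between GC7 replicate 3 and Mock replicate 4. The mean fell from 65.0 ± 8.5 to 50.0 ± 3.89 CPM (SD, n = 4), a log2 fold change of -0.38 (SE 0.0929, adjusted p = 0.00375 by edgeR). Without GC7 replicate 1, 2 or 4 the adjusted p was 0.0158, 0.016 or 0.0115, above the 0.01 threshold. Timm21, which links TIM23 to the TOM complex and to the respiratory chain (ENSMUSG00000024645, on chromosome 18), had 25.1, 27.1, 29.1 and 24.1 CPM in Mock and 18.6, 19.8, 22 and 20.7 CPM in GC7. Its groups were separate too, and the mean fell from 26.3 ± 2.22 to 20.3 ± 1.41 CPM (log2 fold change -0.38, SE 0.0836, adjusted p = 0.00195).

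The channel and motor-side subunits of TIM23 were not called. Timm23, the channel protein, had 98.6, 106, 91 and 94 CPM in Mock and 114, 117, 100 and 109 CPM in GC7. The groups overlapped through GC7 replicate 3, and the log2 fold change was 0.18 (95% interval 0.02 to 0.33, adjusted p = 0.0463). Timm23 has 4 near-identical copies with counts, the closest being Gm10273 with 1121 bases at 99.911% identity and 576 to 887 counts a library, so reads may have been split among them, and with the copies added the log2 fold change was 0.16 (adjusted p = 0.0617). Without Mock replicate 2, Timm23 passed the threshold (adjusted p = 0.00827). Timm17a was at 51.3 ± 1.97 CPM in Mock and 51.1 ± 2.63 in GC7 (log2 fold change -0.01, 95% interval -0.14 to 0.13). Timm44, which tethers the import motor to the channel, was at 80.9 ± 6.33 and 78.1 ± 4.81 CPM (-0.05, interval -0.21 to 0.11). Timm50, the receptor that faces the intermembrane space, was at 58.5 ± 5.75 and 60.8 ± 1.44 CPM (0.05, interval -0.11 to 0.21). These intervals exclude a 1.5-fold change of any of the 3 in either direction.

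In TIM22, the carrier insertase, Timm29 (ENSMUSG00000048429, chr9:21592722-21595970), which ties the complex to TOM, rose. It had 31.1, 29.9, 32.3 and 28.6 CPM in Mock and 42.8, 37, 36.6 and 40.2 CPM in GC7, and every GC7 library stood above every Mock library. The mean went from 30.5 ± 1.58 to 39.1 ± 2.93 CPM (log2 fold change 0.36, SE 0.0735, adjusted p = 0.00113). It shares 3.375% of its exon bases with Yipf2 on the opposite strand, and the counting's strand setting was not given in the sources used here. Timm22, the pore, had 22.7, 26.7, 24 and 23.1 CPM in Mock and 28.1, 27.5, 28.5 and 27.1 CPM in GC7. The groups were separate but close, with a log2 fold change of 0.20 (adjusted p = 0.0295, not called), and without Mock replicate 2 it passed the threshold (adjusted p = 0.00364).

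**Figure D2:**
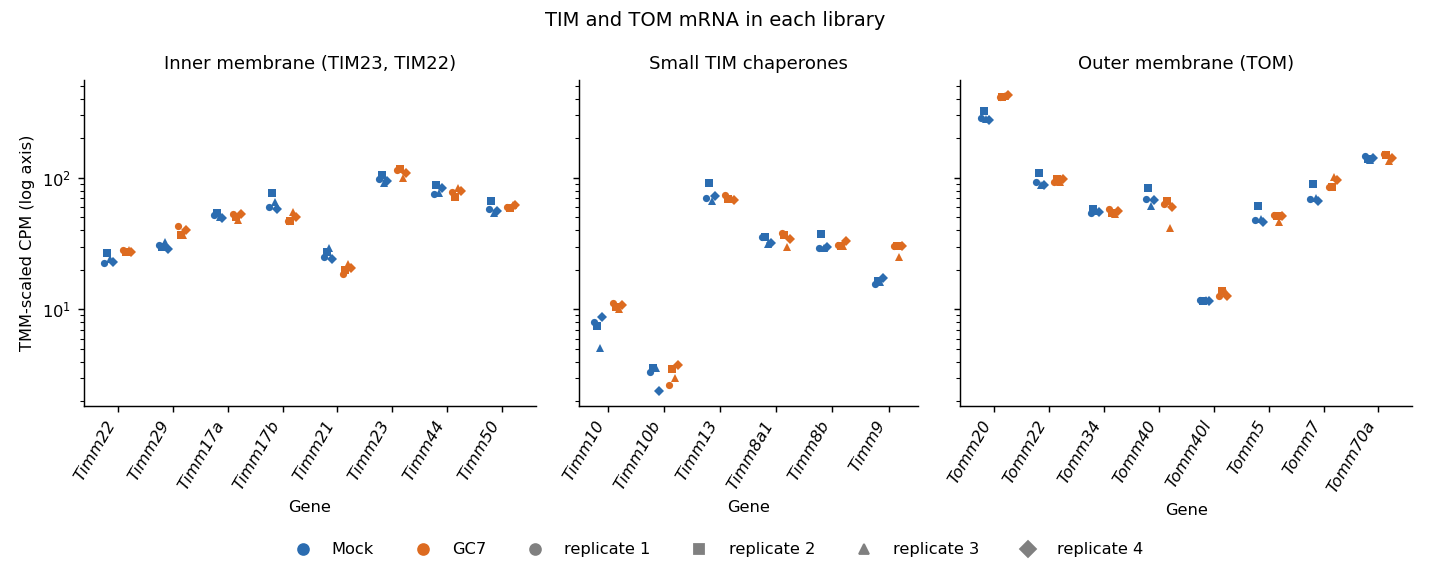
TMM-scaled CPM (log axis) of each tested TIM or TOM mRNA in the 4 Mock (blue) and 4 GC7 (orange) libraries, with the replicate number as the symbol. GC7 points of Timm9, Timm10, Timm29 and Tomm20 stand above the Mock points and those of Timm17b and Timm21 below them, and Mock replicate 2 (square) is often the highest Mock point.

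Among the small TIM chaperones, 2 of 6 tested members rose and none of the 6 fell by the edgeR test. Timm9 (ENSMUSG00000021079, chr12:71123173-71136684), whose protein forms a ring of alternating subunits with that of Timm10, had 15.5, 16.5, 16.1 and 17.3 CPM in Mock and 30.5, 30.4, 25.1 and 30.2 CPM in GC7. All GC7 values were well above the Mock values, with GC7 replicate 3 the lowest of them. The mean rose 1.78-fold, from 16.4 ± 0.782 to 29.1 ± 2.64 CPM (log2 fold change 0.83, 95% interval 0.65 to 1.01, adjusted p = 4.1e-06), the largest change of the 22 members. Timm10 (ENSMUSG00000027076, chr2:84826997-84830213) had 8, 7.52, 5.08 and 8.77 CPM in Mock and 11.1, 10.4, 10.1 and 10.8 CPM in GC7. Its groups were also separate, and Mock replicate 3 was low. The mean rose from 7.34 ± 1.59 to 10.6 ± 0.433 CPM (log2 fold change 0.53, SE 0.144, adjusted p = 0.00694). This call was close to the threshold. It was lost without Mock replicate 1 or 3 (adjusted p = 0.0116 and 0.0108) and without GC7 replicate 1, 2, 3 or 4 (adjusted p = 0.0194, 0.0145, 0.0115 and 0.0184).

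The remaining chaperones kept similar levels in both groups. Timm13 and Timm8a1, partners in a related ring that handles precursors such as that of Timm23, were at 75.1 ± 10.8 and 33.7 ± 2.27 CPM in Mock and at 70.3 ± 2.88 and 34.6 ± 3.62 CPM in GC7. Their log2 fold changes were -0.10 (95% interval -0.29 to 0.10) and 0.04 (interval -0.14 to 0.23). Timm8a1 has a near-identical transcribed copy, Gm9797, with 305 to 472 counts a library, and with it added the log2 fold change was 0.06. Timm8b, a relative of Timm8a1, was at 31.4 ± 4.13 and 31.3 ± 1.48 CPM (log2 fold change -0.01). It shares 15.637% of its exon bases with the opposite-strand Nkapd1. Timm10b, a chaperone that docks at TIM22, was the weakest tested member with 48 to 91 counts, at 3.24 ± 0.568 and 3.25 ± 0.501 CPM (log2 fold change 0.01). Its interval, -0.36 to 0.38, was the widest of the 22. Timm10b shares 10.497% of its exon bases with Gm45799 on the same strand (1 to 9 counts). On the opposite strand it shares 7.733% with Arfip2 (664 to 931 counts), so its level may read too low.

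Timm8a2, a paralogue of Timm8a1, was not tested, with 2 to 8 counts a library. Summed over the tested chaperones, levels ran from 152 to 192 CPM in Mock and from 168 to 188 CPM in GC7. The totals overlapped through Mock replicate 2 alone (192 CPM), and the other Mock totals (152 to 163 CPM) lay under every GC7 total.

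In the outer membrane group, 1 of 8 tested members rose and none of the 8 fell by the edgeR test. With library totals 3 were higher (Tomm7 and Tomm40l added), and without the filter on low counts 2 were higher (Tomm7 added) and 1 lower (Tomm40). Tomm20 (ENSMUSG00000093904, chr8:126930667-126945844) had 285, 320, 280 and 273 CPM in Mock and 413, 415, 421 and 430 CPM in GC7. The GC7 libraries were close together and all above the highest Mock library. The mean rose 1.45-fold, from 289 ± 21.2 to 420 ± 7.60 CPM (log2 fold change 0.54, 95% interval 0.40 to 0.68, adjusted p = 1.8e-05). Tomm20 has processed pseudogenes of near-identical sequence, Gm14494 with 320 to 629 counts and Gm15365 with 147 to 323, whose counts moved the same way (log2 fold changes 0.70 and 0.72). With them added, the log2 fold change of Tomm20 was 0.55 (adjusted p = 1.6e-05). Tomm20 made up 36.4% to 37.2% of the summed CPM of the tested outer members in Mock and 44.4% to 46.4% in GC7. The sum itself was 749 to 872 CPM in Mock and 906 to 947 CPM in GC7, and the ranges were separate. These CPM were not scaled by exon length, so the share does not rank Tomm20 against the other members.

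The other receptors, and Tomm34, were not called. Tomm70a, which receives carrier proteins and their chaperones, was at 141 ± 4.30 and 144 ± 7.30 CPM (log2 fold change 0.04, 95% interval -0.09 to 0.17). Tomm22, the central receptor that holds the complex together, was at 94.9 ± 9.73 and 95.9 ± 3.08 CPM (0.02, interval -0.14 to 0.18). Tomm34, the cytosolic cochaperone, was at 55.7 ± 1.79 and 55.2 ± 1.95 CPM (-0.01, interval -0.14 to 0.11).

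The channel Tomm40 was not called. It had 68.9, 83.4, 60.8 and 67.7 CPM in Mock and 62.9, 67.3, 41.6 and 60.1 CPM in GC7. The groups overlapped, and GC7 replicate 3 was far below the others. The log2 fold change was -0.27 (95% interval -0.57 to 0.02, adjusted p = 0.0978) and -0.14 without GC7 replicate 3. Its paralogue Tomm40l had 11.8, 11.5, 11.8 and 11.5 CPM in Mock and 12.7, 13.7, 13.8 and 12.7 CPM in GC7. Here the groups were separate by a small step, with a log2 fold change of 0.18 (adjusted p = 0.064, not called). Its exons overlap those of the opposite-strand Nr1i3, which had 0 to 1 counts, over 64.343% of their bases.

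Of the small subunits that stabilise the channel, Tomm7 had 69.2, 90.6, 70.2 and 66.2 CPM in Mock and 85.2, 85.3, 102 and 95.8 CPM in GC7. Mock replicate 2 fell among the GC7 values and the other Mock libraries lay below them. The log2 fold change was 0.31 (95% interval 0.09 to 0.53, adjusted p = 0.0174, not called), and without Mock replicate 2 it was 0.42 with an adjusted p of 0.000191. Tomm5 was at 51.0 ± 7.08 and 50.2 ± 2.56 CPM (log2 fold change -0.02). Tomm6 had only 1 to 6 counts a library and Tomm20l, a relative of Tomm20, 0 to 2, so neither was tested. In this annotation, 75.95% of the exon bases of Tomm6 are shared on the same strand with Gm21981 (0 to 2 counts) and 19.363% with Tomm6os on the other strand, so the level of Tomm6 cannot be read from these counts.

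Levels can be compared between members only per exon length. Tomm7 (65.8 ± 9.92 CPM per kb of exon in Mock), Timm8b (60.7 ± 7.97), Tomm20 (59.0 ± 4.33), Tomm5 (58.7 ± 8.16), Tomm22 (57.5 ± 5.89), Timm13 (54.8 ± 7.85) and Timm23 (54.6 ± 3.72) stood highest, and neighbours in this order differed by less than their SDs. The next member, Timm17b, was at 25.4 ± 3.32 CPM per kb, clearly apart from Timm23, and was followed by Timm8a1 (23.7 ± 1.6), Timm44 (22.1 ± 1.73) and Timm50 (21.8 ± 2.14), where neighbours again differed by no more than the larger SD. Tomm34, Tomm40, Tomm70a, Timm29, Timm10, Timm22, Timm21 and Timm17a ran from 18.3 down to 6.51 CPM per kb. Timm9 (3.82 ± 0.183), Tomm40l (2.27 ± 0.036) and Timm10b (0.903 ± 0.158) were lowest of the tested members, each apart from its neighbours by more than their SDs. In GC7, Tomm20 reached 85.6 ± 1.55 CPM per kb, beside 81.7 ± 7.17 for Tomm7, and Timm9 reached 6.79 ± 0.617. Exon length was summed over every annotated transcript, so a gene with long but little used exons reads low on this scale. Counts of near-identical copies were not added, so Timm23, Timm8a1 and Tomm20 may stand too low in this order. Gm9797 had 305 to 472 counts a library, beside 534 to 839 for Timm8a1. Gm10273, 1 of the copies of Timm23, had 576 to 887, beside 1796 to 2599 for Timm23.

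**Figure D3:**
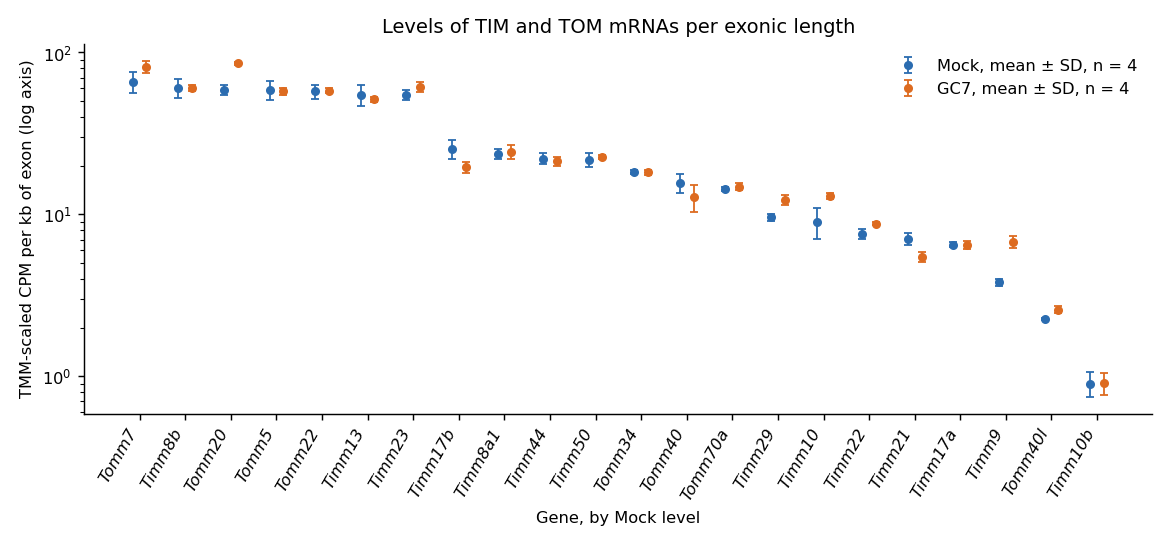
Level of each tested TIM or TOM mRNA in CPM per kb of exon (log axis), mean ± SD of 4 libraries a group, ordered by Mock level. Counts of the near-identical copies of Timm23, Timm8a1 and Tomm20 are not included. The 7 highest members lie between 54.6 and 65.8 in Mock, and Tomm20 and Timm9 show the clearest steps between Mock and GC7.

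The balance of paralogues was compared as the log2 ratio of counts per exon length, which does not depend on library scaling. Timm17a to Timm17b gave -1.85, -2.14, -2.01 and -1.84 in Mock and -1.46, -1.52, -1.84 and -1.55 in GC7. On this scale Timm17b was the higher of the pair in all 8 libraries, and less so in GC7, where replicate 3 lay next to the Mock range. That order rests on the exon lengths used, 7893 bases for Timm17a and 2557 for Timm17b, and in CPM without length the Timm17a value was the larger in GC7 replicates 1, 2 and 4. The difference between the groups does not depend on length. The ratio moved by 0.37 on the log2 scale, from -1.96 ± 0.141 to -1.59 ± 0.168. Tomm40 to Tomm40l gave 2.73, 3.04, 2.55 and 2.75 in Mock and 2.49, 2.48, 1.78 and 2.42 in GC7. Tomm40 dominated throughout, and GC7 replicate 3 was the lowest. The ratio moved by -0.47, from 2.77 ± 0.204 to 2.29 ± 0.346, and by -0.30 without GC7 replicate 3. For each of the 2 pairs the two-sided exact permutation test gave p = 0.0286 (0.0286 after adjustment over both), the smallest p that 4 against 4 libraries allow.

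**Figure D4:**
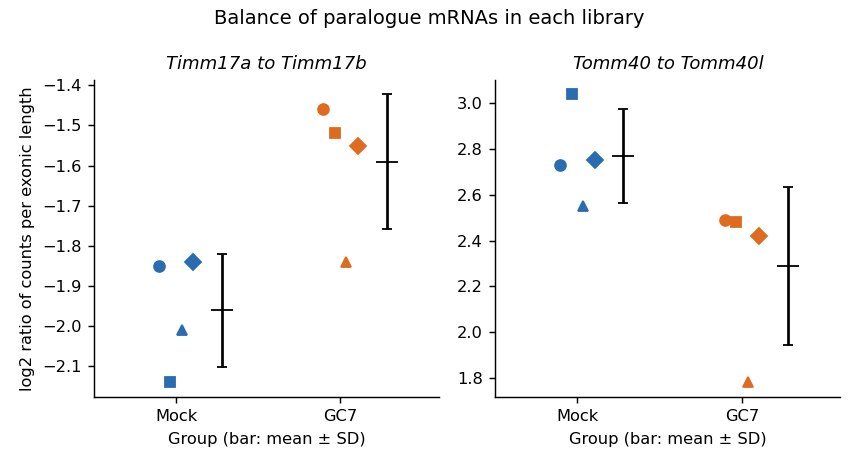
Log2 ratio of counts per exon length for Timm17a to Timm17b and Tomm40 to Tomm40l in each library (circle, square, triangle and diamond for replicates 1 to 4), with mean ± SD beside the points; the vertical axes do not start at 0. Ratios of Timm17a to Timm17b are higher in GC7 and those of Tomm40 to Tomm40l lower, and GC7 replicate 3 lies apart in both.

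Proteins that work beside TIM and TOM gave a background of the same pathway. Of 27 such genes, all tested, 9 rose and 6 fell, or 55.6% called beside 46.6% of all genes tested, with a median log2 fold change of 0.08 and a median absolute change of 0.27. Without GC7 replicate 1 or 4, 3 of them fell. Both genes of the disulfide relay, which folds small TIM proteins in the intermembrane space, rose. Chchd4, its oxidoreductase, went from 13.5 ± 0.814 to 25.0 ± 1.72 CPM (log2 fold change 0.88, adjusted p = 2.0e-06), and Gfer, which reoxidises Chchd4, from 26.2 ± 3.81 to 49.1 ± 3.11 CPM (0.90, adjusted p = 7.4e-06). Both genes of inner membrane insertion also rose, Agk, a lipid kinase that is a further subunit of TIM22 (0.54, adjusted p = 6.3e-05), and Oxa1l, the insertase for proteins that come from the matrix (0.27, adjusted p = 0.00346).

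In outer membrane sorting and insertion, 2 of 6 genes rose and 3 fell. Mtx3, a metaxin of the machinery that assembles barrel proteins, went from 11.7 ± 1.99 to 29.1 ± 1.72 CPM (log2 fold change 1.32, adjusted p = 1.2e-06), and Mtch1, an outer membrane insertase, fell from 190 ± 18.6 to 111 ± 8.44 CPM (-0.77, adjusted p = 5.6e-06). In the import motor, 1 of 7 rose and 1 fell. Grpel2, a nucleotide exchange factor, went from 14.7 ± 0.605 to 24.3 ± 1.17 CPM (0.72, adjusted p = 4.7e-06), while its paralogue Grpel1 fell from 61.2 ± 5.64 to 49.7 ± 2.22 CPM (-0.30, adjusted p = 0.00414). Hspa9, the mitochondrial HSP70, was at 495 ± 21.5 and 572 ± 52.5 CPM (0.21, adjusted p = 0.0296). The cochaperones Dnajc19 and Pam16 had log2 fold changes of 0.08 and -0.27 (adjusted p = 0.484 and 0.0158) and were not called either. Of 5 presequence processing genes 1 rose. Of 5 factors of the cytosol and mitochondrial surface 1 rose and 2 fell, and the gene that rose was Atad1, an ATPase that extracts misplaced proteins from the outer membrane (66.3 ± 3.23 to 111 ± 2.34 CPM, log2 fold change 0.75, adjusted p = 4.3e-07).

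**Figure D5:**
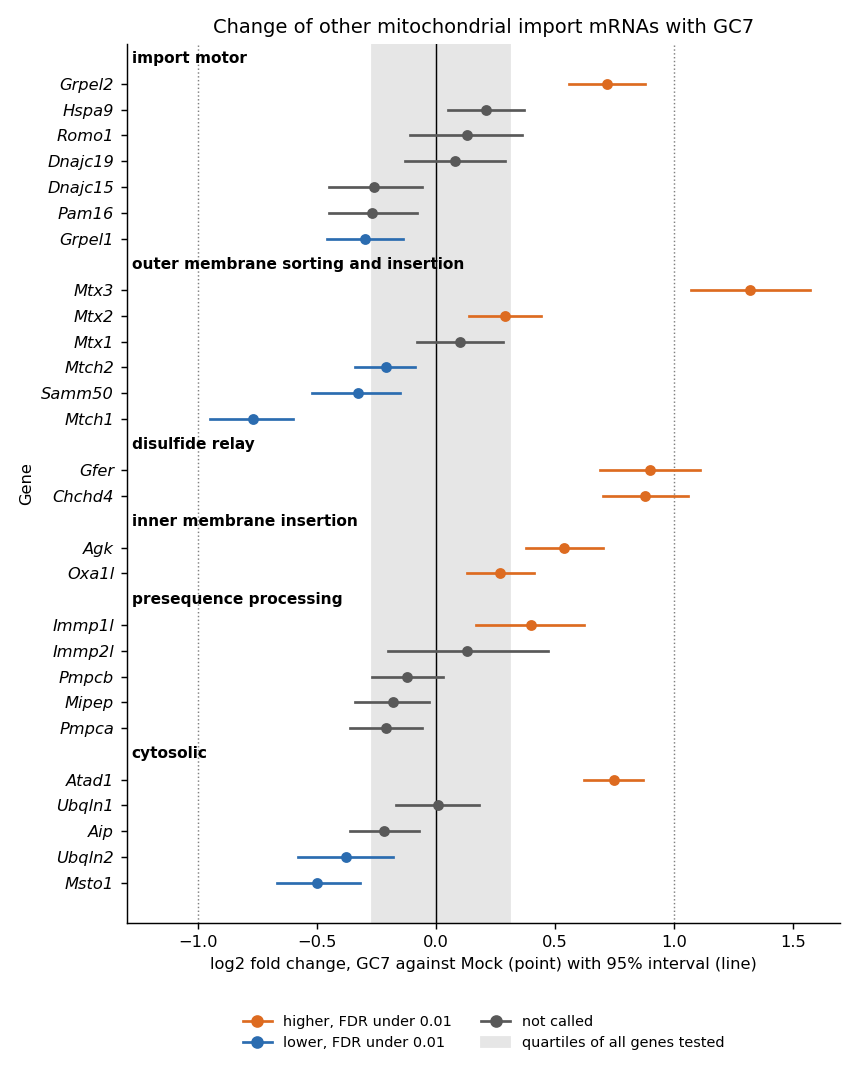
Log2 fold change of 27 other mitochondrial import mRNAs, GC7 against Mock (points), with 95% interval (lines), by role; the grey band spans the quartiles of all genes tested. Mtx3, Gfer, Chchd4, Atad1 and Grpel2 lie furthest right and Mtch1 furthest left.

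For comparison with other nuclear genes of mitochondria, 12 of 77 tested mitochondrial ribosomal protein mRNAs rose and 10 fell (28.6% called, median log2 fold change -0.02), and 7 of 78 tested oxidative phosphorylation mRNAs rose and 14 fell (26.9% called, median -0.06). The share of called TIM and TOM members, 27.3%, lay between these values, and no test of the lists was made.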

How the data were processed

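RNA from 4 Mock and 4 GC7 libraries was sequenced as paired ends. Per the labels and the study's methods, the authors trimmed reads with Cutadapt, aligned them with STAR to GRCm38 (Ensembl 96) and used featureCounts for the gene totals, and deposited raw counts, 1 table a library, without pooling. The strand setting and the handling of reads with several matches were not given in the sources used here.

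Samples were grouped by their titles. All 55536 gene IDs matched GENCODE M21, which gave symbols, coordinates and exon lengths. Genes above 3 CPM in 4 or more libraries (52.6 counts in the smallest library, 75.9 in the largest) were kept, scaled by TMM and compared with edgeR (version 4.0.16, R version 4.3.3) by the quasi-likelihood F test with the group as the only term. Benjamini-Hochberg adjustment ran over 11189 genes, and an FDR under 0.01 made a call. Fold changes are those of the fit, and values are TMM-scaled CPM as mean ± SD. The methods call the replicates biological without naming animals, so p-values measure only the spread between these libraries. On simulated data for the same 11189 genes the test recovered 70 of 100 genes changed by 0.5 on the log2 scale and 99 of 100 changed by 1, with 7 false calls. No other genes changed in the simulation, whereas 46.6% of the genes tested were called in the data. The p-value threshold behind the FDR therefore differs, and these recoveries do not measure the sensitivity here. Paralogue ratios were compared with two-sided exact permutation tests. Copies were found with BLAST (version 2.17.0; matches of at least 200 bases at 90% identity). Alternatives were RLE factors, library totals, limma-voom (limma 3.58.1), DESeq2 (version 1.42.0), TMM without mitochondrially encoded genes, no filter, filterByExpr, a replicate block and each library left out in turn. Adding the copies was chosen after seeing the data.

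The members and all lists (other import genes, cell type markers, mitochondrial ribosomal and oxidative phosphorylation genes, motifs) were chosen with earlier results of these data known. Named were all members and, of the other import genes, those called with more than a 1.5-fold change plus Hspa9, Dnajc19 and Pam16. Agk, Oxa1l and Grpel1 were named after their values were seen. Promoter windows came from RefSeq (GRCm38.p6). Tables and plots were made in Python 3.11.15 with numpy 2.4.6, pandas 2.3.3, scipy 1.17.1 and matplotlib 3.10.9.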

Additional observations from a re-analysis of the deposited data

Results flagged for a closer look

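In each group of 4 libraries, the gap between the highest or lowest library and its nearest neighbour was divided by the whole range of the group (Dixon's ratio), for the 22 tested members and the paralogue ratios. Of 48 groups, 6 passed the 95% critical value, where chance gives about 2.4. Mock replicate 2 stood apart as the highest Mock library for Tomm5 (ratio 0.85), Tomm7 (0.836) and Timm8b (0.919). It was the highest Mock library in 16 of the 22 members, and the share over all genes tested was not counted. Mock replicate 2 had the most counts (25284730) and the lowest TMM factor (0.935). GC7 replicate 3, which had the fewest counts, stood apart as the lowest GC7 library for Tomm5 (0.845), Timm9 (0.94) and the ratio of Tomm40 to Tomm40l (0.901). Timm9 remained called without that library. The part of library depth in these gaps was not tested.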

How the results depend on the processing

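The calls of Timm9, Timm29 and Tomm20 passed the threshold under every alternative run. Timm21 was called in 15 of 16, Timm17b in 12 and Timm10 in 10. RLE factors, TMM without mitochondrially encoded genes, DESeq2, limma-voom and filterByExpr left every count of members within 1.5 times its value.

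Library totals in place of TMM shifted the median of all genes to 0.11 from 0.02. The medians of the inner, small TIM and outer groups then became 0.12, 0.12 and 0.12, 0 inner genes were lower (adjusted p of Timm21 0.0104 and of Timm17b 0.0128) and 3 higher (Timm22 and Timm23 added), 3 outer genes were higher (Tomm7 and Tomm40l added), and 2 other import genes were lower. Signs turned for Timm17a (0.09), Timm44 (0.04), Tomm34 (0.08), Tomm5 (0.07), Timm13 (0.00) and Timm8b (0.09). Without a filter, 1 outer gene was lower (Tomm40, adjusted p = 0.00434) and 2 higher (Tomm7 added, adjusted p = 0.000856); the cause was not tested. The share of all genes called was 48.3% with library totals and 23.7% without a filter.

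Leaving out each library in turn gave 1 to 2 lower and 1 to 3 higher inner genes, 1 to 2 higher small TIM genes, 1 to 2 higher outer genes and 3 to 6 lower other import genes (3 without GC7 replicate 1 or 4). The 3 higher inner genes and 2 higher outer genes came without Mock replicate 2, and the 1 higher small TIM gene where Timm10 was lost. The share of all genes called moved too. It was 50.1% without Mock replicate 2 and 38.6% to 43.8% without any other library, beside 46.6% with all libraries. Changes near 0 turned sign: Timm17a ran from -0.03 to 0.03, Tomm22 from -0.03 to 0.09, Tomm34 from -0.04 to 0.01, Tomm5 from -0.08 to 0.08, Timm10b from -0.12 to 0.09, Timm13 from -0.16 to 0.00, Timm8a1 from -0.00 to 0.11 and Timm8b from -0.06 to 0.09.

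Same-numbered libraries did not pair consistently: the correlations of their deviations were 0.272, -0.116, 0.202 and -0.183 for replicates 1 to 4. The best correlation of each Mock library with another GC7 library was 0.171, 0.416, -0.0296 and 0.0924. The same number was thus the closest for replicates 1 and 3 but not for 2 and 4. With a replicate block, no member's call changed (2 lower and 1 higher inner, 2 higher small TIM, 1 higher outer), 5 other import genes were lower and 6 higher, and the paired sign-flip test of the paralogue ratios gave p = 0.125, the smallest exact p that 4 pairs allow.

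Counts were low for the weakest members: Timm10b had 48 to 91 a library, and Tomm6, Tomm20l and Timm8a2 had too few for a test. The part of depth, or of exons shared with other genes, in these low counts was not tested.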
